A study of Mus musculus with 6 samples.

Results

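The 9 genes described here, Cx3cr1, Tmem119, P2ry12, Csf1r, Trem2, Tyrobp, C1qa, Mrc1 and Cd163, mark microglia and macrophages and were taken by gene name from a table of 54532 genes. They form 3 groups. Cx3cr1, Tmem119 and P2ry12 are enriched in microglia, Csf1r, Trem2, Tyrobp and C1qa are shared by microglia and other macrophages, and Mrc1 and Cd163 belong to macrophages of tissues and of the borders of the brain. All 9 genes passed the filter on low counts, which left 17099 genes for testing.

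Gene expression was measured by RNA-seq in sciatic nerves of mice at postnatal day 3, with 3 control libraries (labelled WT) and 3 Dok6 mutant libraries (labelled Dok6 KO), 1 from each mouse. The series asked whether the loss of Dok6, an adaptor protein that docks on receptor tyrosine kinases, alters genes of myelination. In the mutants a floxed exon 3 of Dok6 was removed by EIIA-cre, a transgene active in the early fertilized egg, so the deletion was not limited to a cell type, on a C57BL/6 background. The study describes the controls as littermates. Whether the controls carried EIIA-cre or floxed alleles is not given in the sources used here. The p-values below measure the spread between these mice.

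Microglia are the resident macrophages of the brain and spinal cord, whereas a peripheral nerve holds its own macrophages between and around its axons. Both cell types depend on signals through the receptor Csf1r, take up debris, and share a large part of their expressed genes, so only a few genes separate them. Of those few, Tmem119 is also made by cells of the osteoblast and connective tissue lineage, and P2ry12 by platelets, so neither gene names a cell type on its own in a bulk sample.

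The libraries held between 17699904 and 18678170 counts, and 3 counts, taken as the smallest detectable level, corresponded to 0.155 to 0.172 CPM (counts per M, scaled by the TMM factors). Counting error is all that such a floor covers. The targeted gene was lower in the mutants, with Dok6 at 17.8, 11.9 and 17.5 CPM in controls 1 to 3 and at 7.25, 5.77 and 7.14 CPM in mutants 1 to 3. The labelled tissue was checked against marker genes. Genes of the central nervous system were present in every library, with Gfap, the filament protein of astrocytes, between 189 and 554 CPM and Slc32a1, the vesicular transporter of inhibitory neurons, between 125 and 181 CPM. These levels go against a sample of nerve alone, and how such RNA came into the libraries was not tested. In a bulk sample, fewer cells of a type and less RNA per cell cannot be told apart.

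Among the 9 genes, Tmem119 was higher in the Dok6 mutants and no gene was lower, by edgeR's quasi-likelihood test at a Benjamini-Hochberg adjusted p under 0.05. The share of all tested genes called higher was 8.62%, and the share called lower was 6.01%. At an unadjusted p under 0.05, edgeR gave 3 of the 9 genes as higher and 0 as lower, where it gave 18% of all genes as higher and 15.5% as lower. After adjustment, DESeq2 called 2 of the 9 genes higher (10.3% of all genes) and limma voom called 1 (7.86% of all genes), and neither called any lower. With a log2 fold change above 1 also required, 1 of the 9 genes was higher, against 3.58% of all genes, and with a log2 fold change above 2 there was none, against 1.08%. In 3 of the 9 genes every mutant was above every control, against 19.6% of all genes, and in 0 every mutant was below every control, against 18.7%. The log2 fold change was positive for 8 of the 9 genes, against 51.4% of all genes, and its median was 0.54, against 0.01 over all genes tested.

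**Figure D1:**
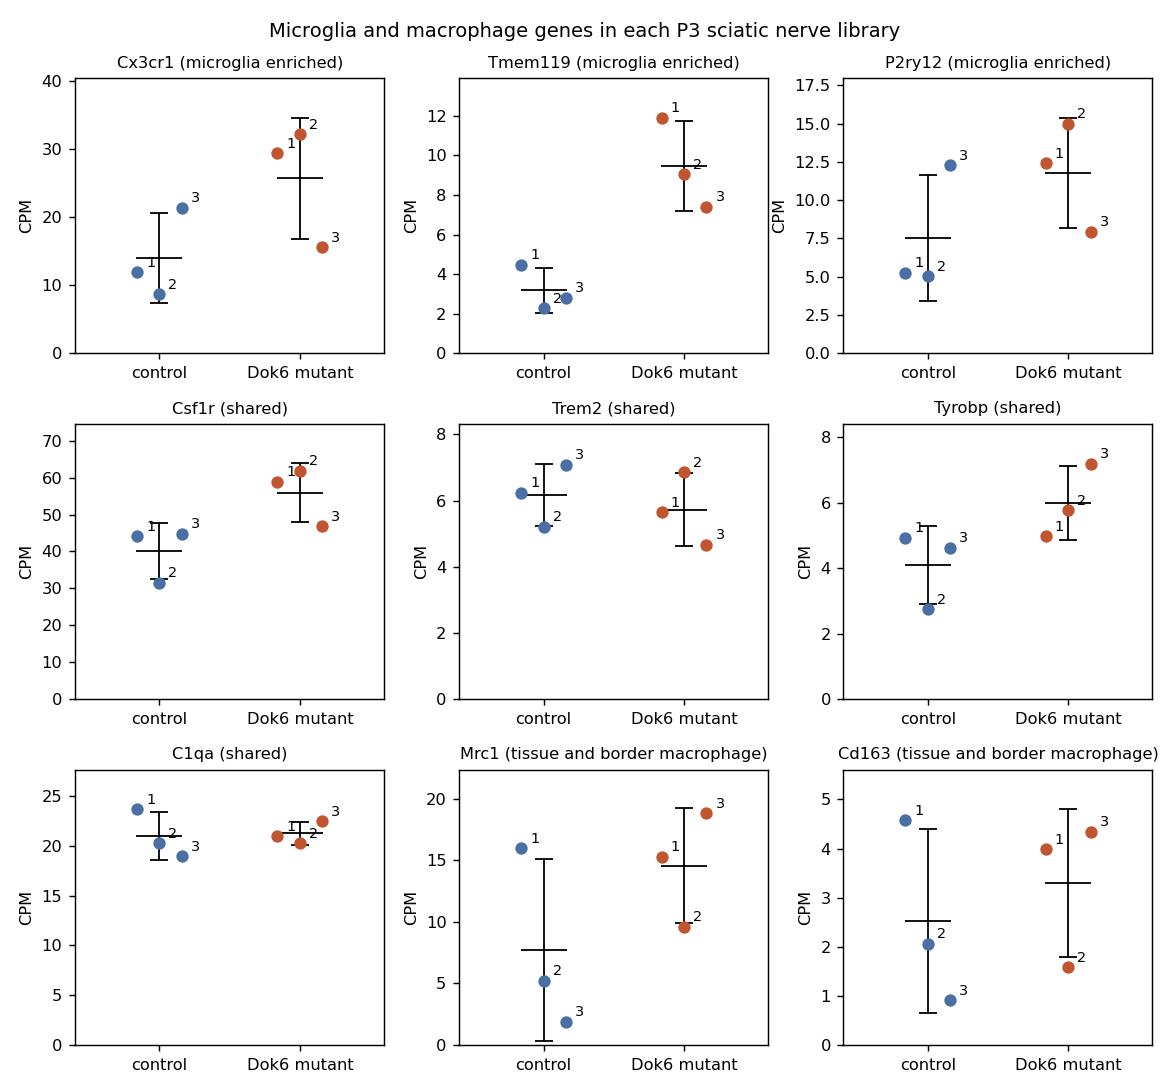
Counts per M counts (CPM) of each of the 9 genes, 1 panel per gene, with 1 point per mouse numbered as in the labels, and the mean and SD of 3 mice as a bar with whiskers. Tmem119, Csf1r and Tyrobp show no overlap of the genotypes, Cx3cr1 and P2ry12 are high in control 3 and low in mutant 3, and Mrc1 and Cd163 show the reverse order in those libraries.

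Among the microglia-enriched genes, Tmem119, a membrane protein used to tell microglia from other brain macrophages, was at 4.47, 2.29 and 2.80 CPM in controls 1 to 3 and at 11.9, 9.04 and 7.41 CPM in mutants 1 to 3. Every mutant was above every control, with mutant 1 the highest and control 2 the lowest. The mean was 3.19 ± 1.14 CPM in controls and 9.44 ± 2.25 CPM in mutants (SD, n = 3), a 2.96-fold difference. The log2 fold change was 1.57 (SE 0.28, 95% interval 0.92 to 2.21, adjusted p = 0.0153 in edgeR's quasi-likelihood test). Without control 2 the log2 fold change was 1.37 and the call was lost, at an adjusted p of 0.0782 in the same edgeR test. Calls over all genes then fell too, from 1474 higher and 1028 lower to 56 and 12. Without mutant 1 the log2 fold change was also 1.37, and the gene stayed called (adjusted p = 0.0429 in edgeR). The gene lies at chr5:113793729-113800516 on the minus strand of GRCm38 and shares no exon with another annotated gene.

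The summed level of fibroblast genes did not overlap between genotypes either. Over 8 genes it was 982, 360 and 147 CPM in controls 1 to 3 and 2080, 2880 and 1820 CPM in mutants 1 to 3. EdgeR called 4 of the 8 higher (8.62% of all genes), DESeq2 6 (10.3%) and limma voom 6 (7.86%). Every mutant was above every control for 6 of the 8, against 19.6% of all genes. Sums of skeletal muscle genes (15.4 to 24.7 CPM in controls, 115 to 622 CPM in mutants) and sensory neuron genes (225 to 269 and 383 to 944 CPM) were also separated. Red cell genes were separated the other way (430 to 746 CPM in controls, 75.4 to 290 CPM in mutants), with 4 of 5 tested called lower by edgeR (6.01% of all genes). Of 10 Schwann cell genes edgeR called 6 higher (8.62% of all genes), DESeq2 4 (10.3%) and limma voom 0 (7.86%). The part of these cells in the difference of Tmem119 was not tested.

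Cx3cr1, the receptor for the neuron-derived ligand fractalkine, was at 11.9, 8.64 and 21.4 CPM in controls 1 to 3 and at 29.4, 32.2 and 15.6 CPM in mutants 1 to 3. Mutants 1 and 2 were above all controls, but mutant 3 was below control 3, so the genotypes overlapped. Cx3cr1 averaged 14 ± 6.63 CPM in controls and 25.7 ± 8.91 CPM in mutants (SD, n = 3), with a log2 fold change of 0.88 (SE 0.36, 95% interval 0.07 to 1.69). It did not pass the edgeR test (adjusted p = 0.124). The adjusted p in edgeR was 0.0473 without control 3, at a log2 fold change of 1.33, and 0.048 without mutant 3, at 1.14. With all 6 libraries and no filter on low counts it was 0.0312, at 0.88. Cx3cr1 lies at chr9:119901616-120069879 on the minus strand, where the antisense gene Gm33858 overlaps its exons, at 0.0573 to 0.518 CPM.

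P2ry12, the purine receptor through which microglial processes sense nucleotides, was at 5.27, 5.04 and 12.3 CPM in controls 1 to 3 and at 12.4, 15.0 and 7.94 CPM in mutants 1 to 3. Control 3 was close to mutant 1 and above mutant 3, so the genotypes overlapped. The means were 7.53 ± 4.11 CPM and 11.8 ± 3.59 CPM (SD, n = 3), the log2 fold change was 0.65 (SE 0.37, 95% interval -0.19 to 1.49), and the adjusted p in edgeR was 0.255. Without control 3 the log2 fold change was 1.20 and the adjusted p in edgeR was 0.0442, while without control 2 the log2 fold change was 0.42. P2ry12 lies at chr3:59216272-59262871 on the minus strand, inside Med12l on the opposite strand, which was at 46.3 to 55.9 CPM with no difference called. Since the use of strand in counting is not given in the sources used here, reads of overlapping exons cannot be told apart.

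The ratio of P2ry12 to Cx3cr1 was 0.442, 0.583 and 0.573 in controls 1 to 3 and 0.421, 0.467 and 0.510 in mutants 1 to 3. Both genes therefore varied by about the same factor from mouse to mouse. Summed over the 3 microglia-enriched genes, the level was 21.7, 16 and 36.5 CPM in the controls and 53.7, 56.3 and 30.9 CPM in the mutants, with mutant 3 below control 3. The summed level of 8 astrocyte genes was 2230, 1960 and 2550 CPM in controls 1 to 3 and 3280, 3190 and 1720 CPM in mutants 1 to 3, and edgeR called 0 of them in either direction, with 0 at an unadjusted p under 0.05, 0 by limma voom, and 0 called and 1 unadjusted by DESeq2. The oligodendrocyte lineage genes gave sums of 605, 506 and 893 CPM in controls and 994, 1370 and 544 CPM in mutants. These glial sums, Cx3cr1 and P2ry12 had their highest control in control 3 and their lowest mutant in mutant 3. Not every gene of the lists did, since control 3 was the highest control for 6 of the 8 astrocyte genes and 6 of the 8 oligodendrocyte lineage genes. The part of glial tissue in the genotype difference was not tested.

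Among the shared genes, Csf1r, the receptor for colony-stimulating factor 1 and interleukin 34 on which microglia and macrophages depend for survival, was at 44.1, 31.5 and 44.8 CPM in controls 1 to 3 and at 58.9, 61.9 and 46.9 CPM in mutants 1 to 3. All mutants were above all controls, although mutant 3 exceeded control 3 by little. Its mean was 40.1 ± 7.51 CPM in controls and 55.9 ± 7.93 CPM in mutants (SD, n = 3). The log2 fold change of 0.48 (SE 0.16, 95% interval 0.12 to 0.84) did not pass the edgeR test (adjusted p = 0.0752), while DESeq2 called it at an adjusted p of 0.0312, as did edgeR without the filter at 0.0288. Without mutant 3 the log2 fold change was 0.59 and the adjusted p in edgeR was 0.0404. Exons of Hmgxb3 overlap those of Csf1r on the opposite strand, and Hmgxb3 was at 29.1 to 39.1 CPM with no difference called.

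Tyrobp, also called DAP12, is the signalling adaptor to which Trem2 is coupled. It was at 4.93, 2.75 and 4.63 CPM in controls 1 to 3 and at 4.97, 5.77 and 7.2 CPM in mutants 1 to 3. The genotypes did not overlap, but mutant 1 was level with control 1. Tyrobp had means of 4.10 ± 1.18 CPM and 5.98 ± 1.13 CPM (SD, n = 3) and a log2 fold change of 0.54 (SE 0.26, 95% interval -0.05 to 1.14), with an adjusted p of 0.183 in edgeR. Without control 2 the log2 fold change was 0.32. It lies at chr7:30413760-30417585 on the plus strand.

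Trem2, the lipid-sensing receptor of phagocytes that signals through Tyrobp, was at 6.24, 5.21 and 7.08 CPM in controls 1 to 3 and at 5.65, 6.86 and 4.66 CPM in mutants 1 to 3. The genotypes overlapped throughout, with the highest value in a control and the lowest in a mutant. The means were 6.18 ± 0.938 CPM and 5.72 ± 1.11 CPM (SD, n = 3), and the log2 fold change was -0.11 (SE 0.21, 95% interval -0.59 to 0.36, adjusted p = 0.741 in edgeR). Its sign turned without mutant 3, to 0.02. Trem2, at chr17:48346401-48354147 on the plus strand, and Tyrobp share no exon with another annotated gene.

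C1qa, a chain of the complement component C1q that tags synapses and debris for uptake, was at 23.7, 20.3 and 19.0 CPM in controls 1 to 3 and at 21, 20.3 and 22.5 CPM in mutants 1 to 3. All 6 libraries lay close together and the genotypes overlapped. Its means were 21 ± 2.42 CPM and 21.2 ± 1.14 CPM (SD, n = 3), with a log2 fold change of 0.02 (SE 0.12, adjusted p = 0.936 in edgeR) and a 95% interval of -0.26 to 0.30. Leaving out control 2, control 3 or mutant 3 turned its sign, to -0.01, -0.05 and -0.03. C1qa lies at chr4:136895917-136898803 on the minus strand.

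The partner chains of C1q varied more, by 1.52-fold (C1qb) and 1.54-fold (C1qc) among controls, against 1.25-fold for C1qa, and neither was called. C1qb was at 29.5, 25.5 and 19.5 CPM in controls and at 25.1, 21.6 and 24.8 CPM in mutants, and C1qc was between 18.2 and 28.1 CPM in the 6 libraries. Summed over C1qa, C1qb and C1qc, the level ran from 56.6 to 81.3 CPM, with both ends of this range in controls. The ratio of C1qa to C1qb stayed between 0.796 and 0.974 in the 6 libraries.

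**Figure D2:**
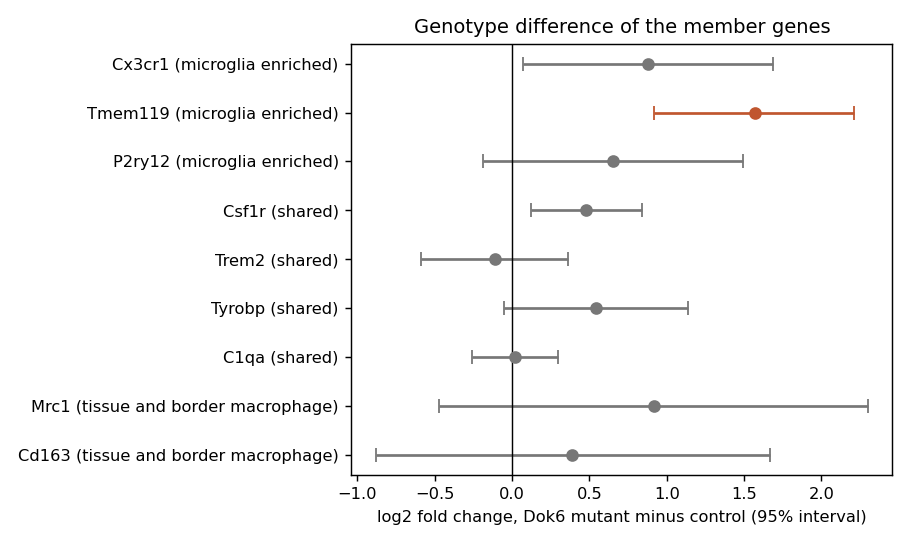
Log2 fold change of each gene, Dok6 mutant minus control, from edgeR, with its 95% interval as a horizontal bar and the called gene in orange. The interval of Tmem119 runs from 0.92 to 2.21, the interval of C1qa is the narrowest, and those of Mrc1 and Cd163 are the widest.

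Mrc1, the mannose receptor CD206 of perivascular and tissue macrophages, was at 16, 5.21 and 1.88 CPM in controls 1 to 3 and at 15.3, 9.59 and 18.8 CPM in mutants 1 to 3. Control 1 was above mutants 1 and 2, while control 3 was far below every other library. The means were 7.71 ± 7.40 CPM and 14.5 ± 4.64 CPM (SD, n = 3), and the log2 fold change was 0.92 (SE 0.61, 95% interval -0.47 to 2.30, adjusted p = 0.325 in edgeR). Without control 1 it was 2.04, with an adjusted p of 0.0433 in edgeR, and without control 3 it was 0.46, with an adjusted p of 0.531. Among the 3 controls the highest level was 8.51 times the lowest, a ratio above that of 99.3% of all genes tested, whose median was 1.25.

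Cd163, the scavenger receptor that takes up hemoglobin bound to haptoglobin, was at 4.58, 2.06 and 0.914 CPM in controls 1 to 3 and at 3.99, 1.58 and 4.34 CPM in mutants 1 to 3. Control 1 was the highest of the 6 libraries and control 3 the lowest, so the controls spanned all mutants. Its means were 2.52 ± 1.88 CPM and 3.30 ± 1.5 CPM (SD, n = 3), with a log2 fold change of 0.39 (SE 0.56, 95% interval -0.88 to 1.67) and an adjusted p of 0.657 in edgeR. The log2 fold change was 1.15 without control 1 and 0.00 without control 3. The highest control was 5.02 times the lowest, a ratio above that of 98.5% of all genes.

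Mrc1 and Cd163 shared their order in the controls, from control 1 down to control 3, and in both genes mutants 1 and 3 were above mutant 2. Genes of blood vessels had this order in their sum, at 290, 210 and 168 CPM in controls 1 to 3 and 353, 291 and 397 CPM in mutants 1 to 3 for 8 endothelial genes. EdgeR called 2 of the 8 higher (8.62% of all genes), DESeq2 3 (10.3%) and limma voom 2 (7.86%). Among these 8 genes, control 3 was the lowest control for 6 and mutant 2 the lowest mutant for all 8. The fibroblast genes had the control part of this order, with control 1 the highest and control 3 the lowest control for all 8. Mutant 2 was the lowest mutant for 3 of those 8. Of the other genes of tissue and border macrophages, Lyve1, a hyaluronan receptor, was at 6.93, 2.80 and 2.63 CPM in controls and at 6.16, 3.38 and 10.4 CPM in mutants. F13a1, a clotting factor subunit made by these macrophages, was at 16.2, 3.72 and 1.37 CPM in controls and at 9.74, 4.03 and 25.1 CPM in mutants. Lyve1 and F13a1 are named here after their values were seen. Pf4, a chemokine of platelets and border macrophages, was at 2.92, 0.63 and 0.628 CPM in controls and at 2.43, 1.63 and 3.76 CPM in mutants. None of these 3 genes was called, and all had control 1 as the highest control and mutant 3 as the highest mutant.

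The stretches just upstream of Mrc1 and Cd163 are shown because these 2 genes varied together, and because both lie outside annotated exons. The sequences are from RefSeq on GRCm38.p6, read on the plus strand, at chr2:14229164-14229391 for Mrc1 and chr6:124304429-124304650 for Cd163. Capitals mark GGAAGT or its reverse complement, a short form of the site bound by PU.1, the transcription factor of the macrophage lineage.

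Mrc1: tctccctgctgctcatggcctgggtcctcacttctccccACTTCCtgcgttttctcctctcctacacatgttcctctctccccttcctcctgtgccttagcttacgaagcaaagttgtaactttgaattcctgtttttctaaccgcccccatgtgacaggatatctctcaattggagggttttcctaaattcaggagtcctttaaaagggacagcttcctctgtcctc

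Cd163: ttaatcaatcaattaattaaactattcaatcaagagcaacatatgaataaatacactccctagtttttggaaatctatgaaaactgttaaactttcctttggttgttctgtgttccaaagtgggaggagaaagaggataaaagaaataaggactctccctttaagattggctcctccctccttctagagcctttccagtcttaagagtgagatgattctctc

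The Mrc1 stretch holds 1 match, on the minus strand, 211 bases upstream of the RefSeq start, and the Cd163 stretch holds none. The GC content of the Mrc1 stretch is 49.1%, against 35.6% for Cd163. Of the 9 genes, 5 have an entry in the promoter table used (Mrc1, P2ry12, Cd163, Cx3cr1 and Trem2). Within the 250 upstream bases searched on both strands, GGAAGT was found in 2 of the 5, Mrc1 and P2ry12, and in 19.7% of 32851 promoters. The longer form GAGGAAGT, which contains GGAAGT, was in none of the 5 and in 2.4% of all promoters, and TGCTGAC, part of the site of the Maf factors, was in none of the 5 and in 3.8% of all. These matches are a description of letters in this window.

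**Figure D3:**
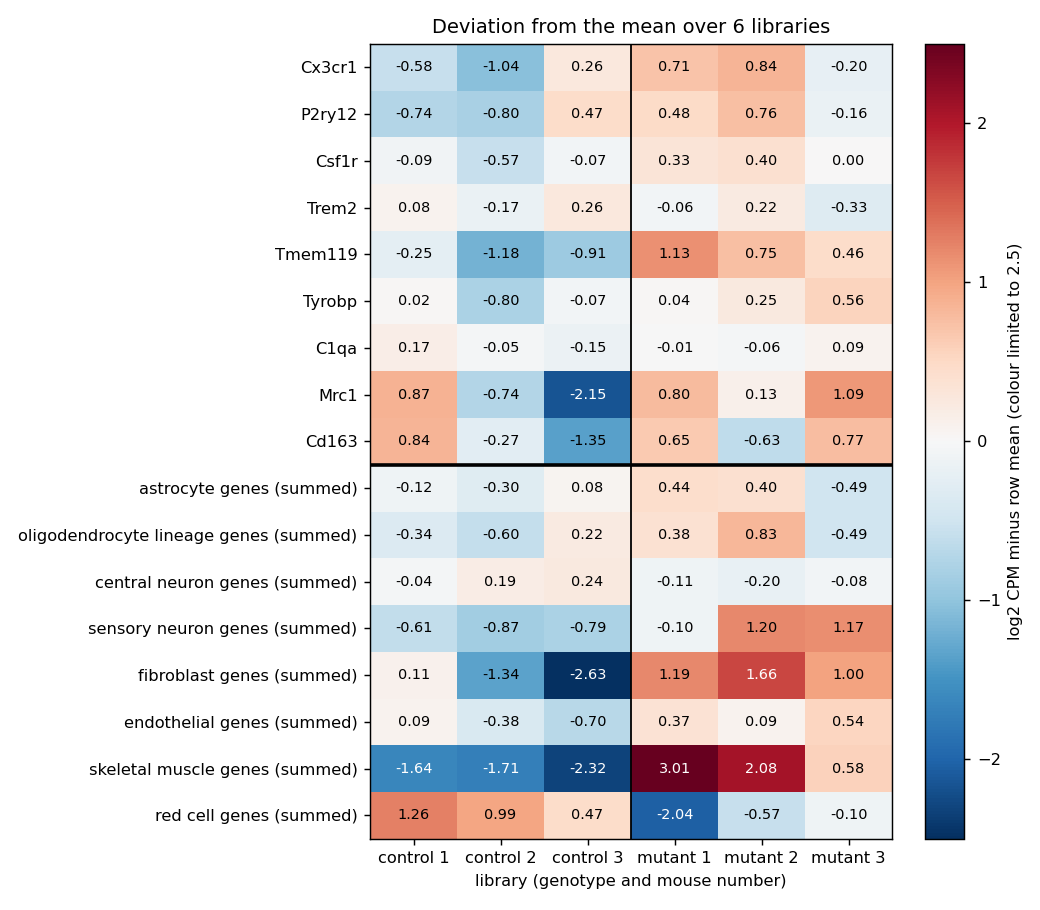
Deviation of log2 CPM from the mean over the 6 libraries, for each of the 9 genes (upper rows) and for the summed level of 8 marker lists (lower rows, without the Schwann cell genes), with 1 column per mouse. Cx3cr1 and P2ry12 are above their mean in control 3 and mutants 1 and 2, as are the astrocyte and oligodendrocyte lineage sums, whereas Mrc1 and Cd163 are highest in control 1 and mutants 1 and 3, and the endothelial sum is highest in mutants 1 and 3, and C1qa stays within 0.17 of its mean.

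Cx3cr1 and P2ry12 thus differed from Mrc1 and Cd163 in which mice were high. The ratio of P2ry12 to Mrc1 was 0.329, 0.967 and 6.52 in controls 1 to 3 and 0.810, 1.57 and 0.423 in mutants 1 to 3. The ratio of Cx3cr1 to Mrc1 was 0.743, 1.66 and 11.4 in controls and 1.93, 3.36 and 0.828 in mutants. In both ratios control 3 was the highest and control 1 the lowest of all libraries, so the controls enclosed the mutants. Over C1qa, which was between 19.0 and 23.7 CPM in all libraries, a ratio largely restates the other gene. The ratio of Tmem119 to C1qa was 0.189, 0.113 and 0.148 in controls and 0.565, 0.446 and 0.329 in mutants, with no overlap. Cx3cr1 to C1qa was 0.504, 0.425 and 1.13 in controls and 1.4, 1.59 and 0.692 in mutants. P2ry12 to C1qa was 0.223, 0.248 and 0.648 in controls and 0.59, 0.742 and 0.353 in mutants, and both of these overlapped. These ratios were not tested.

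Over the 6 libraries, Pearson's r of log2 CPM was 0.97 between Cx3cr1 and P2ry12 and 0.91 between Mrc1 and Cd163. It was 0.04 between Cx3cr1 and Mrc1 and -0.18 between P2ry12 and Mrc1. Tmem119 gave 0.72 with Cx3cr1 and 0.71 with Mrc1. These values describe 6 libraries that share 2 genotypes and a scaling, and carry no test. Among all 17099 genes, those most like Cx3cr1 were Cdk18, Alpl and Olig2, with r from 0.9936 to 0.9948, and those most like P2ry12 were Slc16a1, Pdzd2 and Ighm, with r from 0.9921 to 0.9959. Tmem119 was followed most closely by Gm19605, BC017158 and 2700049A03Rik, from 0.9962 to 0.9976. The genes nearest to Mrc1 were Lamc3, Bicc1 and Igf2, from 0.9936 to 0.9988, and Cd163 had Ifi204 at 0.984, Cenpx at 0.9831 and Dnah2 at 0.9786. For the shared genes, the nearest were Dock4, Fut10 and Metrn for Csf1r, Ptk2, Zfp119a and Nubpl for Tyrobp, Myo7a, Soga1 and Hdac7 for C1qa, and E430024P14Rik, Slc5a7 and Dennd4a for Trem2. No member of the panel was among the 3 genes most like another member.

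**Figure D4:**
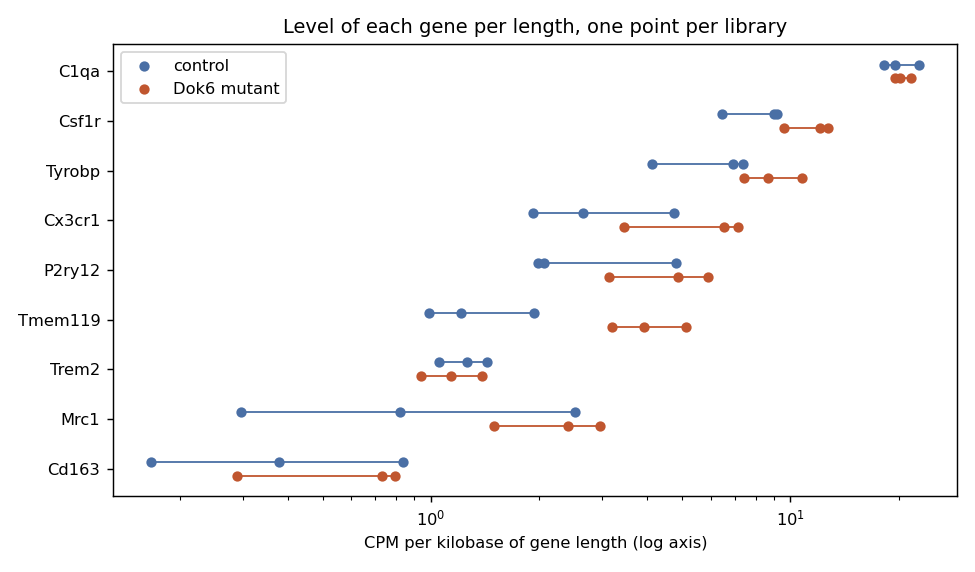
Level of each gene in CPM per kilobase of the deposited gene length on a log axis, with 1 point per library and a line over the range of each genotype. C1qa is the highest gene in both genotypes, Cd163 has the lowest mean, and the points of Tmem119 lie further right in the mutants than in the controls.

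Per kilobase of gene length, which allows genes to be set side by side, C1qa was the highest in both genotypes, at 20.2 ± 2.33 CPM per kb in controls and 20.4 ± 1.09 in mutants (SD, n = 3). In the controls it was followed by Csf1r at 8.22 ± 1.54, Tyrobp at 6.15 ± 1.77, Cx3cr1 at 3.11 ± 1.47 and P2ry12 at 2.96 ± 1.62 CPM per kb. Lower still were Tmem119 at 1.38 ± 0.492, Trem2 at 1.25 ± 0.190, Mrc1 at 1.21 ± 1.16 and Cd163 at 0.461 ± 0.344 CPM per kb. Neighbours in this order overlapped in their ranges, except C1qa with Csf1r and P2ry12 with Tmem119. In the mutants the order was the same down to Tmem119, at 4.08 ± 0.973 CPM per kb, whose range there overlapped that of P2ry12 at 4.63 ± 1.41. Mrc1, at 2.28 ± 0.729, then stood above Trem2, at 1.16 ± 0.223 CPM per kb, with no overlap between them. The deposited length of Csf1r was 4885 bases, against 5774 exonic bases in the annotation used here, so its level per kilobase depends on that choice.

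Beyond the 9 genes, 5 further lists of microglia and macrophage genes held 81 genes, of which 63 were tested. By edgeR's quasi-likelihood test 4 were higher in the mutants and 0 lower, against 8.62% and 6.01% of all genes. DESeq2 called 8 higher and 1 lower, limma voom 5 and 0, and at an unadjusted p under 0.05 edgeR gave 17 higher and 1 lower, against 18% and 15.5% of all genes. The log2 fold change was positive for 48 of the 63 genes (51.4% of all genes), every mutant was above every control for 16 (19.6% of all genes) and below for 1 (18.7% of all genes), and the median was 0.38. Most of these genes were thus on the same side as the panel, while few passed the test. The calls depended on control 2, without which none of the 63 genes was called by edgeR, and all calls over the table dropped to 56 higher and 12 lower.

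Of the 15 other microglia-enriched genes, 13 were tested and edgeR called 1 higher (8.62% of all genes), Olfml3, a secreted matrix-binding protein. It was at 17.8, 10.3 and 7.54 CPM in controls and at 27.0, 24.2 and 24.0 CPM in mutants, and rose with a log2 fold change of 1.08 (SE 0.27, adjusted p = 0.0343 in edgeR). All mutants were above all controls. P2ry13, a purine receptor related to P2ry12, had a larger log2 fold change of 1.72, but mutant 3, at 1.48 CPM, was below control 3, at 2.00 CPM, and its adjusted p in edgeR was 0.0734. Cst3, which encodes cystatin C and was at the highest level per kilobase, had a log2 fold change of 0.00 with the genotypes overlapping. The median log2 fold change of the list was 0.25. Gpr84 and Ccr6 were too low to be tested.

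All 24 of the other pan-macrophage genes were tested, and edgeR called 2 higher (8.62% of all genes), with a median log2 fold change of 0.40. Lcp1, the actin-bundling plastin of white blood cells, was at 16.3, 9.16 and 13.5 CPM in controls and at 23.0, 27.4 and 32.3 CPM in mutants (log2 fold change 1.09, SE 0.22, adjusted p = 0.0189 in edgeR). Ly86, a partner of the toll-like receptor homologue CD180, was at 4.98, 3.03 and 4.97 CPM in controls and at 6.94, 12.9 and 7.41 CPM in mutants (log2 fold change 1.06, SE 0.30, adjusted p = 0.0458 in edgeR). Neither gene overlapped between genotypes. Adgre1, which encodes the macrophage marker F4/80, was also separated by genotype, at 3.55 to 6.53 CPM in controls and 8.73 to 10.3 CPM in mutants, with an adjusted p of 0.0506 in edgeR. Spi1, which encodes PU.1, had a log2 fold change of 0.83 and an adjusted p of 0.0707 in edgeR, with all mutants above all controls. The lowest log2 fold change in the list was -0.15, and 5 of the 24 were negative. Ctss, a lysosomal protease at a high level per kilobase, had a log2 fold change of 0.02.

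Only 7 of the 17 other genes of tissue and border macrophages could be tested, and 3 of the list were at or below 3 counts in every library. EdgeR called 1 of the 7 higher, against 8.62% of all genes. Dab2, an endocytic adaptor, was called, at 17.2, 11.4 and 14.7 CPM in controls and 27.6, 28.4 and 29.5 CPM in mutants (log2 fold change 0.98, SE 0.15, adjusted p = 0.0114 in edgeR). Stab1, a scavenger receptor also made by some endothelial cells, was at 24.1, 13.7 and 9.71 CPM in controls and at 32.0, 24.2 and 44.3 CPM in mutants, with no overlap and an adjusted p of 0.058 in edgeR. The transcription factor Maf had a log2 fold change of 0.10 with the genotypes overlapping.

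Neither antigen presentation genes nor genes of damage and phagocytosis gave a call in edgeR. At an unadjusted p under 0.05, which 18% of all genes passed as higher and 15.5% as lower, 2 of 8 tested antigen presentation genes were higher and 1 was lower, and DESeq2 called 1 lower and limma voom none. The list had 6 of 8 log2 fold changes above 0 and a median of 0.60. H2-Ab1 and Cd74, both parts of the MHC class II machinery, and Ciita, its transcriptional activator, were at most 1.66 CPM in any library and had every mutant above every control, with log2 fold changes of 0.68, 0.67 and 1.66 (adjusted p = 0.141, 0.24 and 0.0894 in edgeR). H2-DMa, which helps to load MHC class II and was the highest of these genes per kilobase after Cd83, had a log2 fold change of -0.08, and it overlapped between genotypes, as did H2-Aa, H2-Eb1 and H2-DMb1. Ciita held 11, 1 and 5 counts in controls 1 to 3, so it owed its place in the test to the mutants. Entry by this route favours a positive log2 fold change. Cd83, a surface protein of antigen-presenting cells, at 33.6, 41.9 and 45.7 CPM in controls and 32.2, 29.7 and 31.2 CPM in mutants, had a log2 fold change of -0.38 (adjusted p = 0.0703 in edgeR). Of 11 tested genes of damage and phagocytosis, 4 were higher and 0 lower at the same unadjusted threshold, DESeq2 called 1 higher and limma voom none. Cd9, a tetraspanin, was at 46.5, 39.4 and 55.2 CPM in controls and at 72.8, 136 and 59.2 CPM in mutants (log2 fold change 0.93, adjusted p = 0.0593 in edgeR). Clec7a, Itgax, Gpnmb, Cst7 and Ccl4, which mark activated microglia, were too low to be tested.

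**Figure D5:**
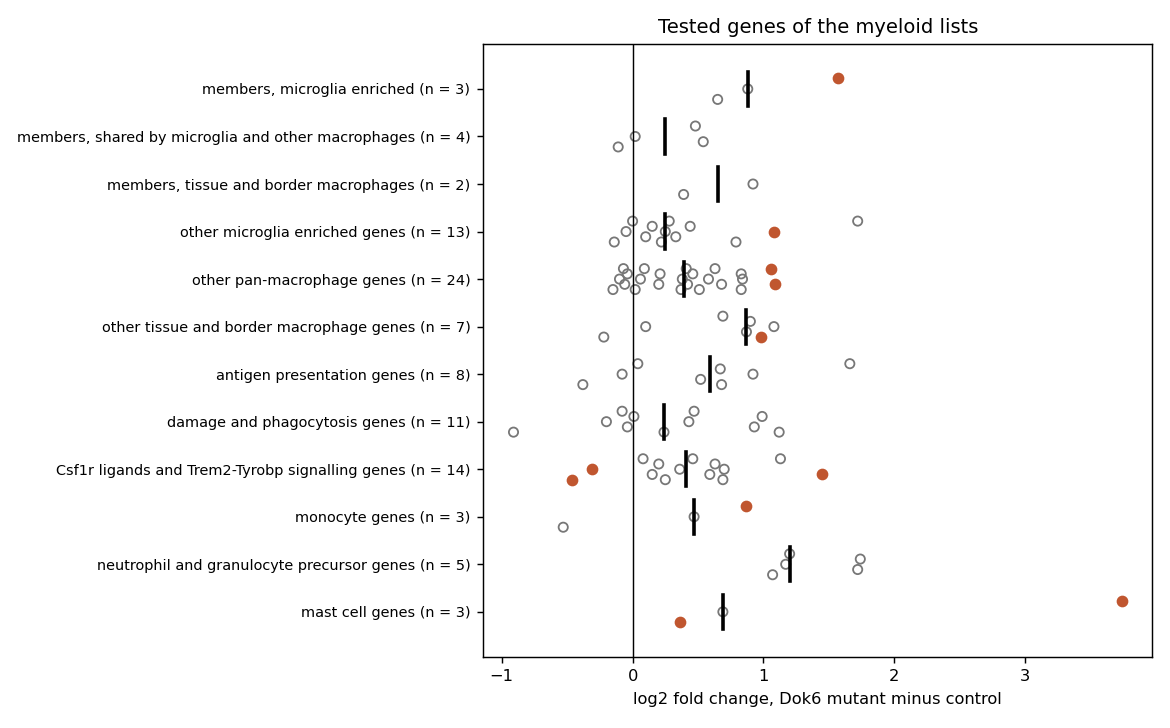
Log2 fold change, Dok6 mutant minus control, of each tested gene in the 3 groups of the panel and in further lists of white blood cell genes, with 1 point per gene, called genes filled in orange and the median of each list as a black bar. Each list has its median above 0, and the called genes of the microglia and macrophage lists are all on the higher side.

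The ligands and signalling partners of these receptors were also examined, as a list of 14 genes that were all tested. Cx3cl1, which encodes fractalkine, the ligand of Cx3cr1, fell from 203, 224 and 241 CPM in controls to 167, 149 and 170 CPM in mutants (log2 fold change -0.46, SE 0.092, adjusted p = 0.0193 in edgeR). Its genotypes did not overlap. Genes of central neurons, which make this ligand, had a summed level of 923 to 1120 CPM in controls and 832 to 902 CPM in mutants, with 1 of 8 called higher, 1 called lower and 6 below 0 in log2 fold change, and their part in the difference of Cx3cl1 was not tested. Csf1 and Il34, the ligands of Csf1r, had log2 fold changes of 0.25 and 0.15 with overlapping genotypes and were not called (adjusted p = 0.382 and 0.823 in edgeR). Among the adaptors, Dok1, a relative of Dok6 in white blood cells, rose from 1.20, 1.14 and 1.08 CPM to 3.31, 3.32 and 2.75 CPM (log2 fold change 1.45, SE 0.25, adjusted p = 0.0136 in edgeR). Grb2, an adaptor present in most cells, fell from 217, 227 and 218 CPM to 169, 167 and 198 CPM (log2 fold change -0.31, SE 0.087, adjusted p = 0.0487 in edgeR). In all, edgeR and limma voom called 1 of the 14 higher and 2 lower, and DESeq2 2 and 2, where edgeR called 8.62% of all genes higher and 6.01% lower. The median log2 fold change was 0.41.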

How the data were processed

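RNA-seq counts of 3 control and 3 Dok6 mutant P3 sciatic nerves were used. The authors deposited counts, the number of reads assigned to each gene, without normalization, with a gene length that served only for levels per kilobase. The build named in the submitters' processing notes is mm10. The aligner, the counting tool and the use of strand are not given in the sources used here, and the labels and the methods name different library kits. Columns were matched to samples by genotype and mouse number.

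Genes were kept by filterByExpr (17099 of 54532), scaled by TMM and tested in 1 quasi-likelihood fit with edgeR 4.0.16 in R 4.3.3, without a block, with Benjamini-Hochberg adjustment over all genes tested. CPM are scaled by the TMM factors. The SE was derived from the F statistic and the 95% interval from the SE and the degrees of freedom of the fit. The procedure was tested on simulated data first. The biological coefficient of variation was 16.6%.

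The members and lists were chosen with earlier results of these data known. Named genes are the 9 members, from each list at most the 4 with the smallest p and the 2 with the highest level per kilobase, and the 3 genes most correlated with each member, unless stated otherwise. The ligands and signalling partners, C1qc, H2-Eb1 and H2-DMb1, and the genes too low to be tested, are named from their lists after their values were seen. Some genes that this rule names are not reported here.

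Alternatives were DESeq2 1.42.0, limma voom (limma 3.58.1), RLE and upper-quartile scaling, library totals without TMM, no filter, at least 10 counts in every library, thresholds of 1 and 2 on the log2 fold change, the replicate number as a block, and leaving out each mouse. Pairs of libraries differed by more than sampling noise (chi-square per degree of freedom at least 9.59), so none was taken as a duplicate.

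Positions are from GENCODE M21 on GRCm38, which holds 54409 of the identifiers. Overlapping and near-identical transcripts were sought by coordinates and with BLAST 2.17.0 (95% identity over at least 200 bases).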

Additional observations from a re-analysis of the deposited data

How the results depend on the processing

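The log2 fold change of Tmem119 was 1.37 or more in all 14 alternative fits, and no alternative called a member lower. Of the 9 members, edgeR called 1 higher, against 2 by DESeq2 (Tmem119 and Csf1r), 3 without the filter on low counts, 0 at a log2 fold change above 2, and 0 to 3 when a mouse was left out. Of the other microglia and macrophage genes, 4 were called higher, against 8 by DESeq2, 11 without the filter, 2 with the replicate block, 0 at a log2 fold change above 2, and 0 to 12 when a mouse was left out. The share of all genes called higher also moved, from 8.62% to 10.3% by DESeq2, 6.08% without the filter, 2.53% with the replicate block, and 0.318% to 9.59% when a mouse was left out. The number lower was 0, against 1 by DESeq2 and 0 to 1 when a mouse was left out. No call remained in either set without control 2. When a mouse was left out, Trem2 ran from -0.26 to 0.02, positive only without mutant 3, and C1qa from -0.05 to 0.11, negative (-0.01, -0.05 and -0.03) without control 2, control 3 and mutant 3. The causes of these changes were not tested.

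Mice with the same number did not deviate together (correlations of -0.24 to -0.01), so the replicate numbers share only a number. With the replicate block, 1 member was higher and 0 lower, and calls over all genes went from 1474 higher and 1028 lower to 432 and 130. With library totals in place of TMM they were 1768 and 603, and the median of all genes moved from 0.01 to 0.07. Counting error limits Cd163 most, at 16 to 82 counts per library.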

Other observations

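Other white blood cells were represented by few tested genes. Of 12 lymphocyte genes none could be tested, with a summed level of 0.687 to 1.31 CPM in controls and 0.777 to 1.91 CPM in mutants. Of 10 monocyte genes 3 were tested, and Fn1, which encodes fibronectin and is also made by fibroblasts and endothelial cells, was higher (log2 fold change 0.87, adjusted p = 0.0493 in edgeR's quasi-likelihood test). Ace, which encodes the angiotensin-converting enzyme, was at 44.6, 45.0 and 38.3 CPM in controls and at 23.8, 25.2 and 39.6 CPM in mutants (log2 fold change -0.53, adjusted p = 0.0898 in edgeR), and DESeq2 called 1 of the 3 genes higher and 1 lower. Ly6c2 and Ccr2, which define inflammatory monocytes, were too low to be tested. The neutrophil and granulocyte precursor genes, 5 of 12 tested, had a summed level of 8.08, 4.69 and 3.43 CPM in controls 1 to 3 and of 4.81 to 29.9 CPM in the mutants, where mutant 2 was the highest and mutant 3 was below control 1. EdgeR and limma voom called none of these 5, with 1 higher in edgeR at an unadjusted p under 0.05, and DESeq2, which tested 7 of the 12, called 1 higher. Of 8 mast cell genes edgeR tested 3 and called 2 higher (8.62% of all genes), limma voom called 1 of 3 (7.86%) and DESeq2 4 of 5 (10.3%). Tpsb2, a mast cell tryptase, was at 0.286, 0.114 and 0 CPM in controls and at 4.09, 0.599 and 0.899 CPM in mutants (adjusted p = 0.042 in edgeR's test), with mutant 1 the highest. It passed the filter on low counts only through the mutants, with 5, 2 and 0 counts in the controls. A gene that enters the test this way can hardly be called lower. Kit, a receptor of mast cells that neurons also make, was at 76.9 to 91.0 CPM in controls and 98.9 to 116 CPM in mutants.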
